A study of Drosophila melanogaster with 4 samples.

Results

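Long noncoding RNA genes of Drosophila melanogaster were followed in the larval central nervous system after activated signalling proteins were expressed in glia. A gene was taken if its fly symbol began with lncRNA: or asRNA:, leaving out lncRNA:roX1 and lncRNA:roX2, and if it reached 5 FPKM in both libraries of the reprogrammed or of the control group. These measured levels in FPKM, which scale fragment numbers to the length of the transcript and the mapped total, are what the genes were selected on. Of 13997 genes listed in any library, 1380 carried such a symbol and 269 passed the level rule. In 188 of these genes all 4 libraries reached the threshold, in 58 both libraries of the reprogrammed group alone did so, and in 23 both libraries of the control group alone did so.

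The 2 reprogrammed samples expressed constitutively activated Egfr and PI3K92E under repo-Gal4, and the 2 control samples expressed the fluorescent protein mRFP under the same driver. All larvae were at 96 hours after egg laying, and every sample was a pool of 70 to 100 nervous systems. The repo driver is active in glia, whereas the sequenced RNA came from the whole nervous system. Nothing in the labels says that the pools came from separate crosses, so p-values measure the spread between these samples, which may be technical. In bulk tissue, fewer cells of a type and less RNA per cell cannot be told apart.

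Long noncoding RNAs are transcripts that are not translated into a long protein. Some act as scaffolds for RNA-binding proteins, some are precursors of small RNAs, and many lie antisense to a protein-coding gene, which the asRNA prefix marks in flies. The nervous system is known for a varied set of such RNAs, and most of those in the fly have only a CR number and no described role.

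The libraries listed 12192 and 12334 genes in the reprogrammed group and 12423 and 12620 genes in the control group. Judged from the smallest steps among low values, 1 FPKM of a transcript 1 kilobase long stood for 11.1 and 11.3 reads in the reprogrammed libraries and 11.6 and 12.3 reads in the control libraries. At that worth, the 208 members with a single annotated transcript had a mean of 16.5 to 4515 reads per library, with a median of 132.5. Egfr had 58.9 and 49.3 FPKM in the reprogrammed libraries against 8.60 and 11.4 FPKM in the controls, and Pi3K92E had 287 and 253 FPKM against 8.28 and 17.1 FPKM. These values do not separate the transgenes from the resident genes. The 6 neuronal markers summed to 86.5 and 122 FPKM in the reprogrammed libraries against 505 and 436 FPKM in the controls, and the 4 neural stem cell markers to 10.7 and 16.6 FPKM against 59.4 and 81.8 FPKM. The 6 glial markers summed to 2665 and 2503 FPKM against 637 and 623 FPKM. With limma, 6 of 6 neuronal and 3 of 4 stem cell markers fell and 5 of 6 glial markers rose at an adjusted p under 0.05. All median changes below stand beside a median of -0.25 on the log2(FPKM + 1) scale over all 9851 tested genes.

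The 269 genes were 100 with the lncRNA prefix and 169 with the asRNA prefix. Their longest annotated transcripts ran from 201 to 21216 bases, with a median of 823 bases, and 153 of them had a single exon. Exons of 197 genes overlapped those of a protein-coding gene, 179 of them on the opposite strand and 18 on the same strand. Another 18 lay within or across the span of a coding gene without touching its exons, and 54 lay clear of any coding gene. No strand-marking step is described for the libraries, so reads from an antisense gene and its partner cannot be told apart where exons overlap. The 64 genes whose exons met no other gene's, small RNAs cut from the transcript aside, all carried the lncRNA prefix. Chromosome arm 3L held 83 members, 3R held 59, 2L and 2R held 42 each, X held 34 and chromosome 4 held 9. A total of 39 genes had another member within 10 kb.

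The level of these genes was low for most and very high for a few. The mean over 4 libraries ran from 3.31 to 2966 FPKM with a median of 15.02 FPKM, and 24 genes exceeded 100 FPKM. At the threshold itself, the last genes taken were lncRNA:CR45169 and lncRNA:CR45382, each with 5.04 FPKM in the lower library of its better group, and asRNA:CR43629 with 5.12 FPKM. The first genes left out were asRNA:CR44989 at 4.96 FPKM, asRNA:CR45152 at 4.90 FPKM and asRNA:CR44064 at 4.88 FPKM.

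**Figure D1:**
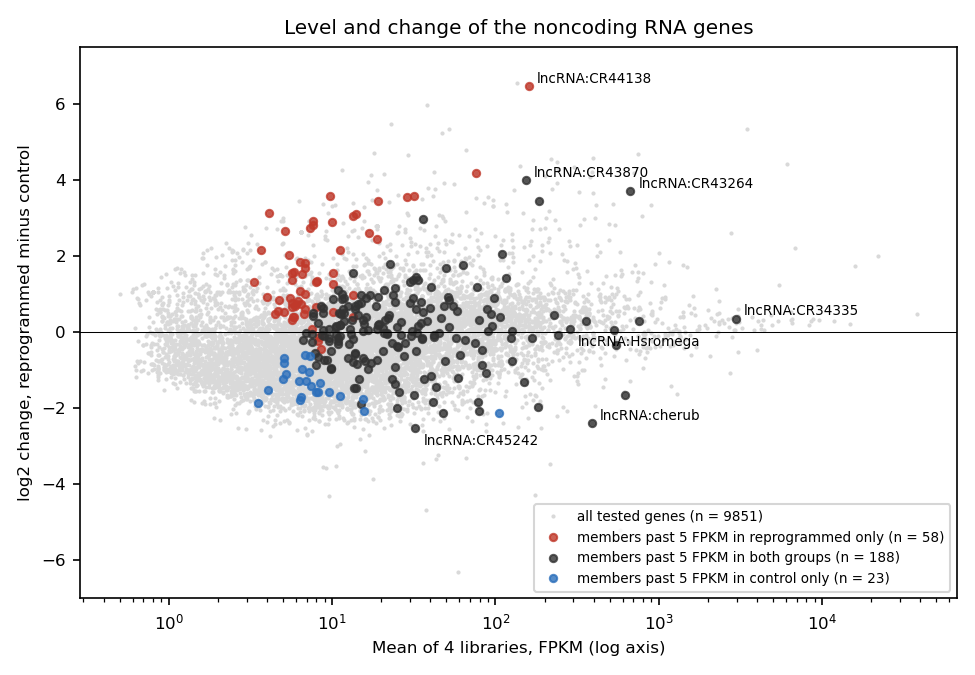
Mean of the 4 libraries in FPKM on a horizontal log axis and log2 change (reprogrammed over control, after adding 1 FPKM) on the vertical axis, for the 58 members past the threshold in reprogrammed libraries only (red), the 188 in both groups (dark), the 23 in control libraries only (blue) and all 9851 tested genes (grey). The members past the threshold in both groups spread on both sides of 0, from -2.51 for lncRNA:CR45242 to 4.0 for lncRNA:CR43870.

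Among the 188 genes that reached the threshold in every library, 9 were higher and 12 were lower in reprogrammed nervous systems at a limma adjusted p under 0.05 (n = 2 per group). That is 4.79% and 6.38% of these genes. Over all tested genes 4.11% were higher and 8.13% lower, and over the 6020 tested genes at 5 FPKM or more in all 4 libraries 3.84% were higher and 5.58% lower. The shares of the noncoding genes thus lay near those of genes of like level. Their median change was 0.05, against -0.09 for the 6020 genes, and 167 of the 188 passed in neither direction. The libraries of the groups did not overlap in 59 higher and 43 lower genes, 31.4% and 22.9% of the 188, against 26.7% and 33.1% of the 6020 genes. The split of called genes depended on scaling, with 17 higher and 3 lower when libraries were set to a common median, and 8 higher and 20 lower when set to a common sum. Without reprogrammed replicate 1 the fit called 3 higher and 1 lower, without reprogrammed replicate 2 it called 5 and 5, without control replicate 1 it called 36 and 34, and without control replicate 2 it called 26 and 30.

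Both prefixes held genes of either direction. Of the 64 with the lncRNA prefix 3 (4.69%) were higher and 8 (12.5%) were lower, with a median change of -0.15. Of the 124 with the asRNA prefix 6 (4.84%) were higher and 4 (3.23%) were lower, with a median of 0.11. Among the 38 whose exons met no other gene's, 3 (7.89%) were higher and 7 (18.4%) were lower, with a median of -0.08. Among the 150 with exonic overlap 4.0% were higher and 3.33% lower. The shares of the 6020 genes of like level were 3.84% higher and 5.58% lower. Differences between these sets were not tested.

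The largest decrease among these genes was that of lncRNA:CR45242 on 3L, a single-exon gene of 872 bases with no described role used here. It had 5.88 and 12.5 FPKM in the reprogrammed libraries against 41.7 and 69.4 FPKM in the controls, a log2 change of -2.51 ± 0.45 (SE, limma adjusted p = 0.0369). Both reprogrammed libraries lay well below both controls.

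The RNA cherub is known in flies to bind the RNA-binding proteins Syncrip and Staufen and to accumulate in neural stem cell tumours that form without brat. Transcript lncRNA:cherub on 3R, of 8311 bases, had 97.1 and 154 FPKM in the reprogrammed libraries against 524 and 780 FPKM in the controls. The means were 125 ± 40.1 and 652 ± 181 FPKM (SD, n = 2 each), a log2 change of -2.38 ± 0.37 (limma adjusted p = 0.0334), and the groups did not overlap. When the trend of the change on transcript length was removed, the change was -1.39 with an adjusted p of 0.0813. Its nearest coding gene CG5214, 769 bases away, had 46.2 and 59.9 FPKM against 34.8 and 60.4 FPKM, so that its libraries overlapped between groups.

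A list of 8 genes was made of genes for RNA-binding proteins of the nervous system and of the adaptor gene mira. It included stau and Syp, whose proteins are named above as binding this RNA. Of the 8 genes, 5 fell and none rose with limma, while 8.13% of all tested genes were lower. At an unadjusted p under 0.05, 7 were lower and 0 higher, and over all tested genes 23.4% were lower and 10.7% higher. The 3 that did not pass were Imp, Syp and Rbp9. The Staufen gene stau had 16.0 and 17.3 FPKM against 45.3 and 54.7 FPKM in the controls, a change of -1.53 (limma adjusted p = 0.0369). The tumour suppressor brat changed by -1.93 (adjusted p = 0.0385), mira, which encodes the adaptor that carries Staufen and Brat in dividing neural stem cells, by -2.30 (adjusted p = 0.0422), and the neuronal genes elav and fne by -1.80 (adjusted p = 0.0369) and -2.33 (adjusted p = 0.0324). Syp, the Syncrip gene, had 275 and 253 FPKM against 519 and 288 FPKM, a change of -0.55 (limma adjusted p = 0.348). The neuronal and stem cell marker sums given above were also lower, but elav is counted in the neuronal sum and mira in the stem cell sum. The part of these cell types in the decrease of lncRNA:cherub was not tested.

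Another 3 genes with given names fell and were free of exonic overlap. The 914-base lncRNA:marge on 3L had 19.2 and 15.2 FPKM in the reprogrammed libraries against 92.4 and 64.9 FPKM in the controls, a change of -2.12 ± 0.31 (limma adjusted p = 0.0324). Its change was -2.28 without reprogrammed replicate 1 and -1.96 without reprogrammed replicate 2. With libraries set to a common median it was -1.79 and did not pass (limma adjusted p = 0.0509). For lncRNA:mimi on 3R, whose transcript holds the microRNA mir-9381, the values were 66.0 and 81.9 FPKM against 331 and 252 FPKM, a change of -1.96 ± 0.29 (limma adjusted p = 0.0324). The coding gene nearest to it, CG13603, 148 bases away, was higher in both reprogrammed libraries, with 131 and 97.0 FPKM against 66.0 and 46.7 FPKM. The third, lncRNA:noe, lies within the span of blot on 3L and had 95.4 and 76.6 FPKM against 210.4 and 214 FPKM, a change of -1.30 ± 0.27 (limma adjusted p = 0.0399).

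The most abundant of the decreased RNAs was lncRNA:CR33938, a 505-base transcript on 3R. It had 266 and 323 FPKM in the reprogrammed libraries against 696 and 1205 FPKM in the controls, a change of -1.64 ± 0.38 (limma adjusted p = 0.0480). On 2R, lncRNA:CR44272 had 25.04 and 32.1 FPKM against 175 and 86.5 FPKM, a change of -2.08 ± 0.40 (limma adjusted p = 0.0385). In both, the 2 groups stayed apart although the control libraries differed from each other.

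The remaining 5 decreases shared exonic bases with a coding gene, so their reads may belong in part to that gene. The RNA lncRNA:CRG is annotated on the same strand as CASK, which encodes a synaptic scaffold kinase, and lies wholly within its exons. It had 16.0 and 19.3 FPKM against 71.1 and 59.1 FPKM, a change of -1.83 ± 0.28 (limma adjusted p = 0.0334), while CASK as a whole had 9.86 and 10.7 FPKM against 17.2 and 30.8 FPKM, a change of -1.09 that did not pass (adjusted p = 0.102). The gene asRNA:CR43425 on chromosome 4 lies wholly within exons of unc-13, which encodes a factor for synaptic vesicle priming, on the opposite strand. It had 11.8 and 12.1 FPKM against 50.1 and 28.1 FPKM, a change of -1.57 ± 0.36 (limma adjusted p = 0.0482), and unc-13 changed by -1.41 (adjusted p = 0.0395). The other 3 were asRNA:CR45009 at -2.00 (adjusted p = 0.0340), asRNA:CR45815 at -1.88 (adjusted p = 0.0355) and asRNA:CR43481 at -1.65 (adjusted p = 0.0384). Their partners FucTC, CG13920 and Hsp67Ba changed by -1.55, -2.03 and -1.87.

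**Figure D2:**
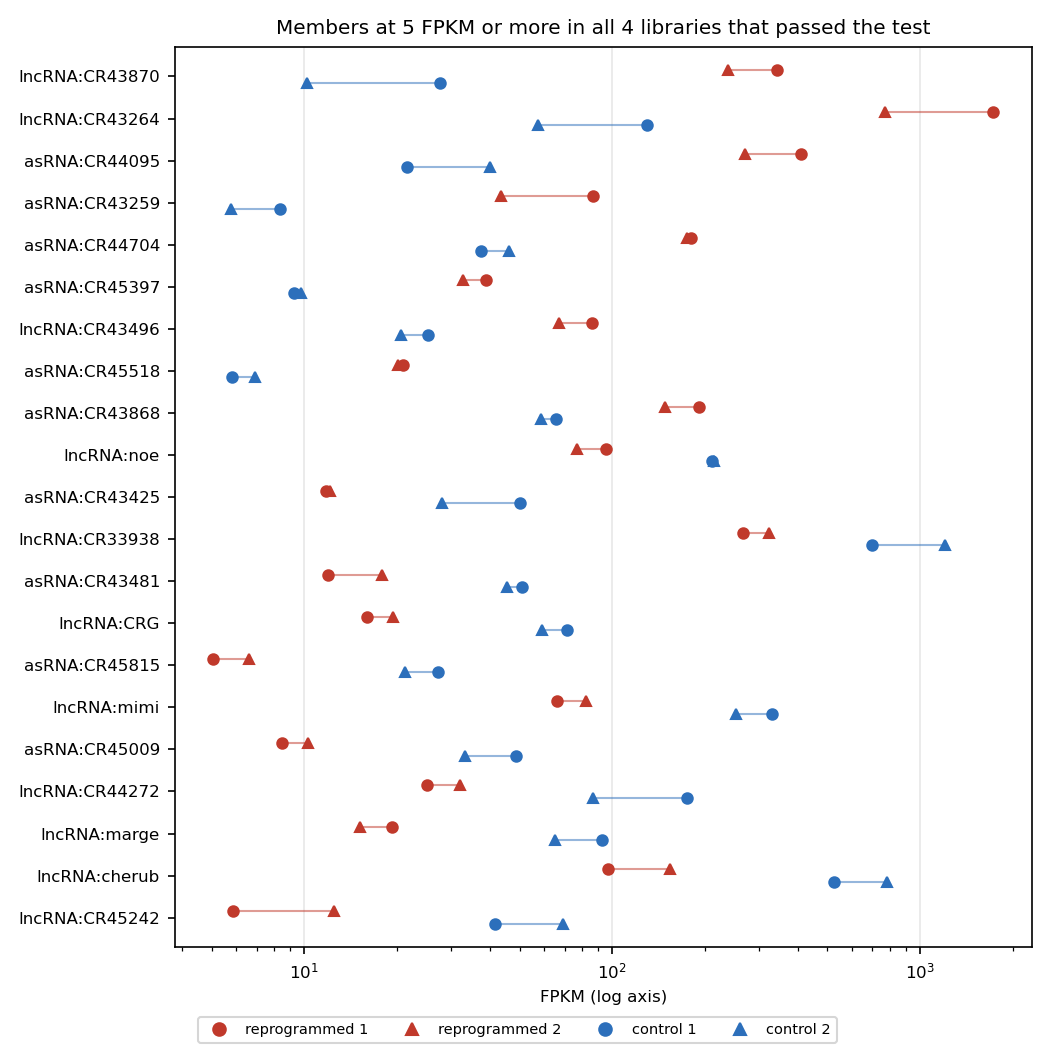
FPKM on a log axis in each library of the 21 members that reached 5 FPKM in all 4 libraries and passed the limma test, with reprogrammed libraries in red, control libraries in blue, circles for replicate 1, triangles for replicate 2 and a line joining the libraries of a group. In each of the 21 genes the groups do not overlap, and the widest gap belongs to lncRNA:CR43870, with 342 and 237 FPKM against 27.6 and 10.2 FPKM.

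Of the 9 increases, 3 were of genes with no exonic overlap, and all 3 lay within the span of a coding gene on the opposite strand. The largest was lncRNA:CR43870 on 3L, inside the span of CG6497, with 342 and 237 FPKM in the reprogrammed libraries against 27.6 and 10.2 FPKM in the controls. Its log2 change was 4.0 ± 0.50 (limma adjusted p = 0.0297). The most abundant was lncRNA:CR43264 on X, a single-exon transcript of 318 bases, with 1724 and 767 FPKM against 129.5 and 57.5 FPKM and a change of 3.72 ± 0.56 (limma adjusted p = 0.0324). The gene CG15765, in whose span it lies, went the other way, with 6.27 and 8.34 FPKM against 34.4 and 41.7 FPKM and a change of -2.24 (limma adjusted p = 0.0324). The third was lncRNA:CR43496 on X, within the span of sov, with 86.0 and 67.4 FPKM against 25.2 and 20.6 FPKM, a change of 1.70 ± 0.29 (limma adjusted p = 0.0343). There sov itself had 1.08 and 1.10 FPKM against 3.21 and 4.38 FPKM, a change of -1.19 that did not pass (adjusted p = 0.0624).

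The other 6 increases were of antisense genes that share exonic bases with their partners. The strongest was asRNA:CR44095 on 3R, with 411 and 269.7 FPKM in the reprogrammed libraries against 21.5 and 40.0 FPKM in the controls, a change of 3.46 ± 0.40 (limma adjusted p = 0.0297). It shares 56.6% of its exonic bases with Cys, a cystatin-like protease inhibitor gene, which had 2082 and 1179.8 FPKM against 123 and 191 FPKM and changed by 3.35 (adjusted p = 0.0297). The partner was several times more abundant in every library, and the changes were nearly equal. By contrast asRNA:CR43259 shares 18.4% with CG31089 and stood above it, with 86.5 and 43.6 FPKM against 8.35 and 5.78 FPKM, where CG31089 had 4.04 and 2.87 FPKM against 0.50 and 0.30 FPKM. The changes were 2.97 ± 0.42 for the antisense gene (limma adjusted p = 0.0324) and 1.66 for CG31089 (adjusted p = 0.0385). The remaining 4 were asRNA:CR44704 at 2.07 (adjusted p = 0.0297), asRNA:CR45397 at 1.80 (adjusted p = 0.0336), asRNA:CR45518 at 1.55 (adjusted p = 0.0386) and asRNA:CR43868 at 1.43 (adjusted p = 0.0385). Their partners CG10527, CG32147, CG12730 and CG10638 changed by 2.12, 1.82, 1.13 and 1.46.

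The genes that reached the threshold in 1 group only are given as values, without a test, because their levels chose them. A total of 58 belonged to the reprogrammed and 23 to the control group, so that 71.6% of these 81 genes were of the reprogrammed group. Among all genes without these prefixes the same rule gave 461 and 975 genes, or 32.1%. Among those genes whose transcript length fell between 514 and 1372 bases, the interquartile range of the members, it gave 132 and 103 genes, or 56.2%. Genes with no exonic overlap numbered 22 of the reprogrammed and 4 of the control group, or 84.6%.

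The highest RNA of the reprogrammed group alone was lncRNA:CR44138 on 3R, a single-exon transcript of 493 bases in the span of CG9813 on the opposite strand. It had 521 and 116 FPKM in the reprogrammed libraries against 0.94 and 3.03 FPKM in the controls, or about 2676 and 607 reads against 5 and 17 reads. Replicate 1 lay well above replicate 2. Both reprogrammed libraries lay far above both controls, as they lay above them in 43 of the 58 genes of this group. The levels of these genes chose them, so this separation is no separate evidence of an increase. The host span gene CG9813 had 8.95 and 5.21 FPKM against 7.38 and 19.4 FPKM, with libraries that overlapped between groups.

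Single-exon RNAs clear of coding genes made up most of the 10 largest increases of this kind. On 3L, lncRNA:CR32368 had 231 and 58.8 FPKM against 11.3 and 2.39 FPKM, whereas the gene nearest to it, Tmem43, had 41.6 and 41.1 FPKM against 27.6 and 21.7 FPKM. On X, lncRNA:CR45517 had 90.3 and 30.1 FPKM against 3.38 and 3.53 FPKM. The nearest coding gene, CG16756, was not listed in reprogrammed replicate 1 and had 0.36 FPKM in replicate 2 against 0.53 and 1.68 FPKM. The RNA lncRNA:CR45914 on 3R, of 228 bases, had 21.5 and 16.0 FPKM against 0.90 and 0.42 FPKM, and lncRNA:CR45737 on 3L had 49.4 and 22.3 FPKM against 2.85 and 1.51 FPKM. Beside Fit1 on 3L, lncRNA:CR45670 had 32.8 and 19.2 FPKM against 2.06 and 1.95 FPKM, and Fit1, which encodes an integrin-associated protein, had 33.1 and 30.0 FPKM against 16.4 and 20.8 FPKM.

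The last 4 of these 10 were lncRNA:CR43461, lncRNA:CR44430, lncRNA:CR44522 and asRNA:CR44375. On X, lncRNA:CR43461 had 79.7 and 29.0 FPKM against 4.71 and 2.02 FPKM, and lncRNA:CR44430 had 36.0 and 13.7 FPKM against 0.85 and 3.33 FPKM. The single-exon lncRNA:CR44522 on 3L had 11.1 and 5.41 FPKM in the reprogrammed libraries and was not listed in either control library. It lies 314 bases from Ldh, the lactate dehydrogenase gene, which had 365 and 232 FPKM against 13.2 and 139 FPKM. The antisense gene asRNA:CR44375 on 2R had 13.4 and 14.8 FPKM against 0.58 and 1.52 FPKM. It shares 12.1% of its exonic bases with Cdk4, a cell cycle kinase gene, which had 22.0 and 28.1 FPKM against 13.2 and 24.5 FPKM and a change of 0.44 that did not pass (limma adjusted p = 0.466).

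**Figure D3:**
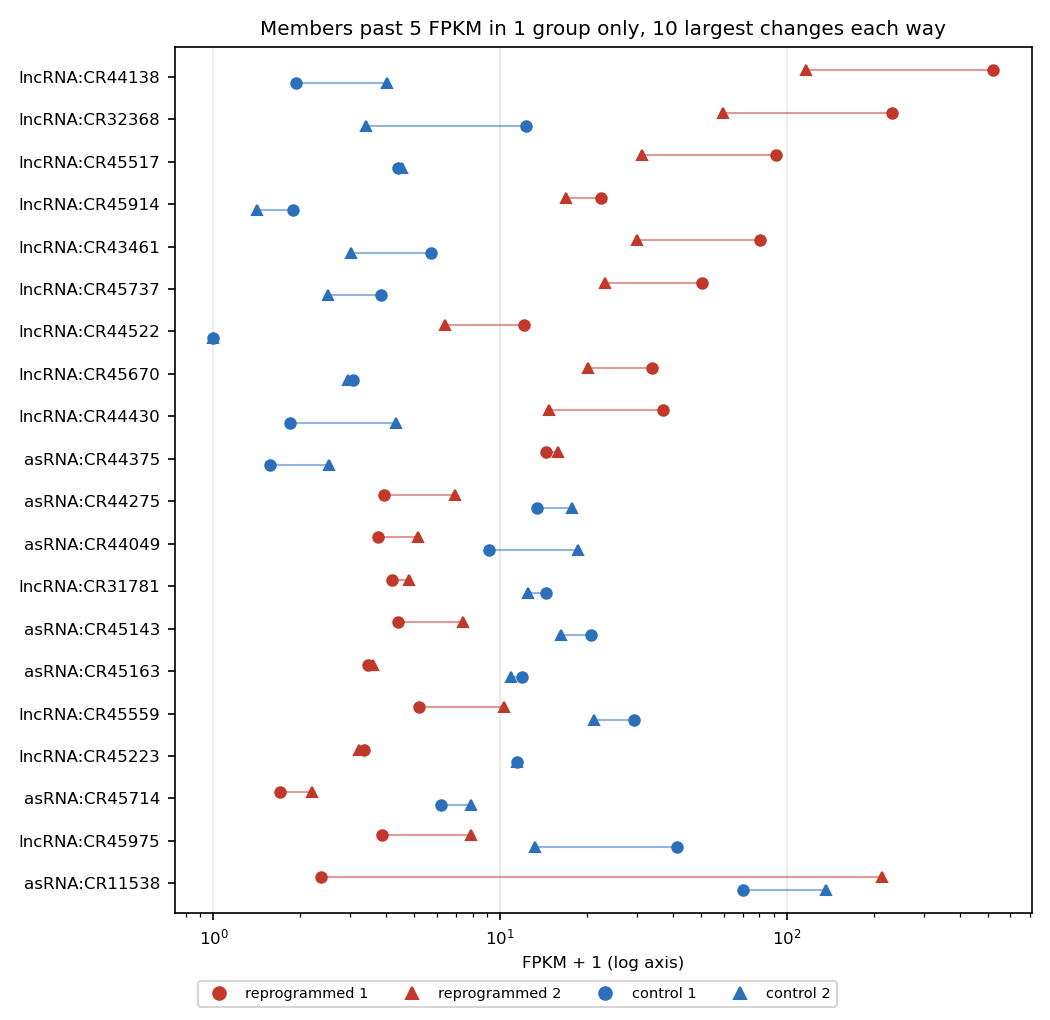
FPKM + 1 on a log axis in each library of the members that reached 5 FPKM in 1 group only and had the 10 largest log2 changes in either direction, with reprogrammed libraries in red, control libraries in blue, circles for replicate 1 and triangles for replicate 2. The reprogrammed libraries of lncRNA:CR44138 stand at 521 and 116 FPKM against 0.94 and 3.03 FPKM in the controls, and asRNA:CR11538 is the one gene drawn whose groups overlap.

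Among these 10 RNAs reprogrammed replicate 1 stood above replicate 2 in 9, with a median log2 ratio of 1.22 between the reprogrammed libraries and of 0.03 between the controls. Over all tested genes the median ratio of replicate 1 over 2 was -0.08 in the reprogrammed and -0.31 in the control group. For the 22 genes of the reprogrammed group alone with no exonic overlap, replicate 1 was above replicate 2 in 19 of the reprogrammed pairs, with a median of 0.51, and in 14 of the control pairs, with a median of 0.36. For the 30 antisense genes of the reprogrammed group alone, replicate 1 was above replicate 2 in 12, with a median of -0.06. In 9 of the 10 largest increases the higher value was thus that of reprogrammed replicate 1, and the part of that library in their level was not tested. The fat body markers also differed between replicates, with a sum of 6.13 and 424 FPKM in the reprogrammed libraries against 207 and 1183 FPKM in the controls, lowest in reprogrammed replicate 1. The muscle markers summed to 38.3 and 116 FPKM against 78.5 and 416 FPKM, lowest in the same library. The 3 listed gut and salivary gland markers summed to 3.54 and 12.7 FPKM against 758 and 0.21 FPKM, lowest in control replicate 2.

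**Figure D4:**
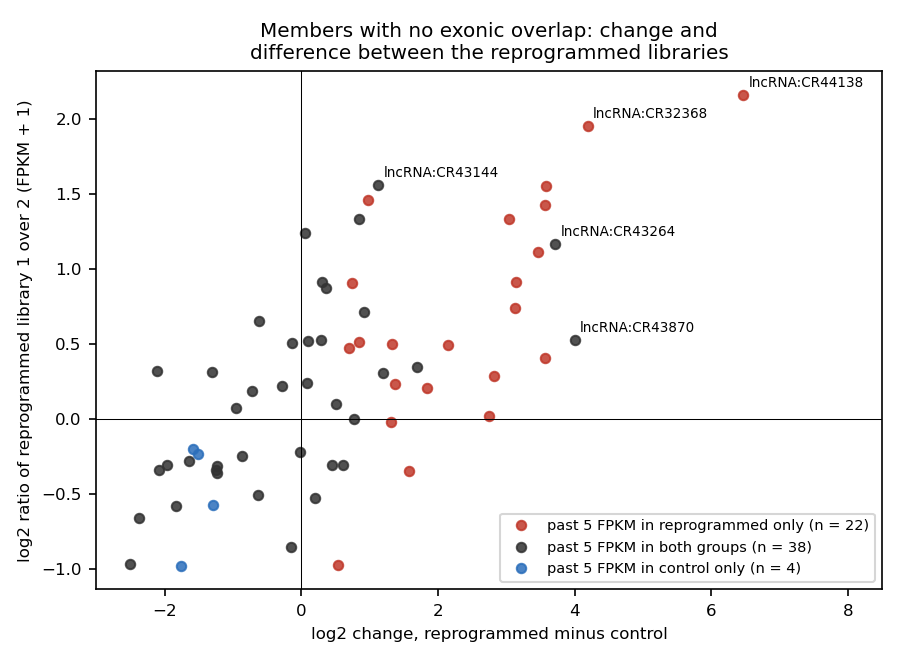
Log2 change, reprogrammed minus control, on the horizontal axis and log2 ratio of reprogrammed replicate 1 over replicate 2 on the vertical axis, both on FPKM + 1, for the 64 members with no exonic overlap, of which 22 passed the threshold in reprogrammed libraries only (red), 38 in both groups (dark) and 4 in control libraries only (blue). Replicate 1 is above replicate 2 in 19 of the 22 red points, and both axes hold the value of reprogrammed replicate 1.

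The 23 genes of the control group alone had a median level of 6.96 FPKM over the 4 libraries, against 6.84 FPKM for the 58 of the reprogrammed group alone. The gene asRNA:CR44275 lies antisense to dpn, which encodes a transcription factor of neural stem cells, and had 2.93 and 5.97 FPKM in the reprogrammed libraries against 12.5 and 16.8 FPKM in the controls. It shares 80.4% of its exonic bases with dpn, which had 3.67 and 6.25 FPKM against 12.9 and 17.5 FPKM. Gene and antisense gene stood at nearly the same level in each library. The gene asRNA:CR45143, antisense to fus, had 3.41 and 6.40 FPKM against 19.7 and 15.3 FPKM, and fus had 3.27 and 3.88 FPKM against 11.9 and 14.1 FPKM.

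Of the others, lncRNA:CR45975 lies wholly within exons of the cell death gene grim on the same strand, and had 2.88 and 6.93 FPKM against 40.3 and 12.2 FPKM. Its partner grim had 11.1 and 14.1 FPKM against 40.2 and 23.4 FPKM. Clear of coding exons on 3R, lncRNA:CR45559 had 4.22 and 9.29 FPKM against 28.2 and 20.2 FPKM, at 2791 bases from Antp, a homeotic gene with 9.58 and 11.4 FPKM against 23.0 and 23.7 FPKM. In each of these 4 genes both controls stood above both reprogrammed libraries, as in 22 of the 23 genes of this group. Their levels chose them, so this separation is no separate evidence of a decrease. Another 5 genes of this group had log2 changes between -1.86 and -1.57, with lncRNA:CR45223 at -1.80, asRNA:CR45714 at -1.86, asRNA:CR45163 at -1.69, lncRNA:CR31781 at -1.58 and asRNA:CR44049 at -1.57. The given-name gene asRNA:ASTR, antisense to Rga, had 4.92 and 5.79 FPKM against 6.02 and 12.4 FPKM.

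One gene of this group rests on a single library. Antisense to the larval serum protein gene Lsp2, a product of the fat body, asRNA:CR11538 had 1.37 and 213 FPKM in the reprogrammed libraries against 68.9 and 135 FPKM in the controls, so that the groups overlapped. Lsp2 had 2.76 and 302 FPKM against 126 and 199.6 FPKM, the same order of libraries as its antisense gene. All 5 fat body markers were lowest in reprogrammed replicate 1, but they did not share one order in the other libraries. The log2 change was -2.12 with all libraries, 1.13 without reprogrammed replicate 1 and -5.36 without reprogrammed replicate 2.

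Of the 12 members of highest mean level, 8 did not pass the test. At the top stood lncRNA:CR34335 on X, of 361 bases, with 4399 and 2399 FPKM in the reprogrammed libraries against 2580 and 2485 FPKM in the controls. Its change was 0.36 ± 0.47 (limma adjusted p = 0.634), and reprogrammed replicate 2 lay below both controls. The 214-base lncRNA:CR40469 had 1121 and 594 FPKM against 659 and 669 FPKM, with a change of 0.30 (adjusted p = 0.646). Both are short transcripts, for which FPKM depends strongly on the length assumed.

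The heat shock RNA lncRNA:Hsromega is the scaffold of omega speckles, nuclear bodies that hold heterogeneous nuclear ribonucleoproteins (hnRNPs), and it is the longest member. It had 320.1 and 271 FPKM in the reprogrammed libraries against 305 and 252 FPKM in the controls, a change of 0.09 ± 0.29 (limma adjusted p = 0.854). With the length trend removed the change was 1.33 (adjusted p = 0.0552). That correction used the longest annotated transcript, of 21216 bases, at the end of the members' range. FPKM by gene does not separate transcripts of different length. Of 10 genes for omega speckle proteins, all at 5 FPKM or more in every library, 3 fell and none rose with limma. Of all tested genes 8.13% were lower, and of the 6020 at that level 5.58%. At an unadjusted p under 0.05, 7 were lower and 0 higher, where 23.4% of all tested genes were lower. The median change of the 10 was -1.03, against -1.96 for the neuronal and -2.28 for the neural stem cell markers in the same libraries. The part of those cell types in it was not tested. The hnRNP gene Hrb87F had 97.9 and 113 FPKM against 256 and 276 FPKM, a change of -1.33 (adjusted p = 0.0392). The others that fell were nonA at -1.40 (adjusted p = 0.0391) and Hrb98DE at -1.15 (adjusted p = 0.0480). Another product of a heat shock locus, lncRNA:alphagamma-element:CR32865, had 97.5 and 38.1 FPKM against 23.7 and 47.5 FPKM, with overlapping groups and a change of 0.84 ± 0.55 (adjusted p = 0.335). Its sequence is repeated at that locus, so its reads may be shared among copies.

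Another 4 of the most abundant members lay antisense to genes of still higher level. The gene asRNA:CR45264, antisense to CG8860, had 496 and 552 FPKM against 717 and 356 FPKM, a change of 0.05 (limma adjusted p = 0.943). The gene asRNA:CR45874, antisense to the ribosomal protein gene RpS9, had 370.4 and 424 FPKM against 302 and 341 FPKM, a change of 0.30 (adjusted p = 0.497). Changes of -0.07 (adjusted p = 0.904) and 0.44 (adjusted p = 0.294) were found for asRNA:CR45778, antisense to dUTPase, and asRNA:CR45798, antisense to Rab1.

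A total of 7 members hold a microRNA or small nucleolar RNA (snoRNA) on their own strand, and snoRNAs guide the modification of ribosomal RNA. Besides lncRNA:mimi and lncRNA:Hsromega they were lncRNA:CR42491, lncRNA:CR45184, lncRNA:CR46006, asRNA:CR17025 and asRNA:CR46194. The host of 5 snoRNAs, lncRNA:CR45184, had 49.7 and 63.4 FPKM in the reprogrammed libraries against 133 and 105 FPKM in the controls, a change of -1.06 that did not pass (limma adjusted p = 0.0634). The host of mir-276a, lncRNA:CR46006, had 6.47 and 8.60 FPKM against 32.2 and 10.9 FPKM, a change of -1.23 (adjusted p = 0.172). In both, the groups did not overlap although the test was not passed. The same held, with lower reprogrammed values, in 33.1% of the 6020 genes at 5 FPKM or more in all 4 libraries, called or not. The RNA lncRNA:CR42491, which shares 50.5% of its exonic bases with RpL22, had 440.2 and 502 FPKM against 830.2 and 422 FPKM, with overlapping groups and a change of -0.33 (adjusted p = 0.612). Of 8 genes for core proteins of snoRNA particles, limma called 0 in either direction, with 0 at an unadjusted p under 0.05. Over all tested genes 4.11% were called higher and 8.13% lower, and 10.7% and 23.4% at an unadjusted p under 0.05. With 8 genes, a count of 0 cannot be told apart from these shares.

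None of the genes tested from 2 machineries that degrade noncoding transcripts passed the test. Over all tested genes 4.11% were higher and 8.13% lower, and 10.7% and 23.4% at an unadjusted p under 0.05 (limma). Among so few genes, the counts below lie near these shares. Of 11 nuclear exosome genes, limma called 0, with 2 lower and 0 higher at an unadjusted p under 0.05 and a median change of -0.03. Of 6 genes of nonsense-mediated decay, limma called 0, with 1 lower and 0 higher at an unadjusted p under 0.05 and a median change of -0.74.

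Members that share exons with a coding gene had changes close to those of that gene. For 195 members the overlapping coding gene with the largest shared length was itself tested, 192 distinct genes in all. Across these pairs of genes the log2 changes had a Spearman rho of 0.76 and a Pearson r of 0.75, and 159 pairs had the same sign. The pairs share reads in part, come from the same 4 libraries and are not independent replicates. The median absolute difference between the log2 changes of a pair was 0.18. Where at least 50% of the member's exonic bases were shared, in 149 pairs, rho was 0.91, and in the other 46 pairs it was 0.42. The median member stood at 0.643 of its partner's level in FPKM, and 47 members stood above their partner. For 52 members with no exonic overlap, the changes of member and nearest coding gene had a rho of 0.27, and 29 pairs had the same sign.

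**Figure D5:**
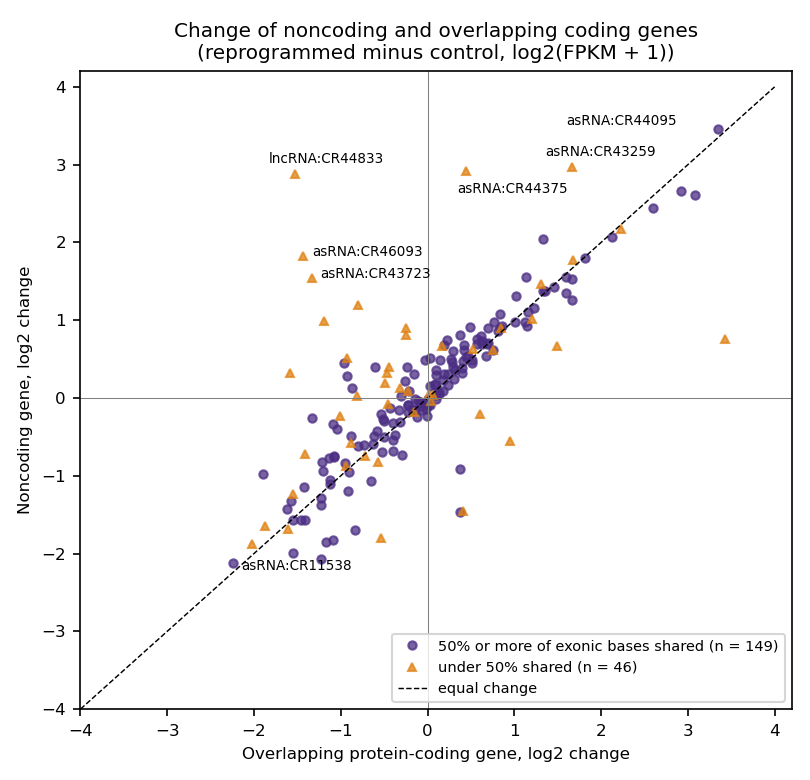
Log2 change of the overlapping protein-coding gene (horizontal) and of the noncoding gene (vertical), both for reprogrammed over control after adding 1 FPKM, for 149 pairs that share at least 50% of the member's exonic bases and 46 that share less, with a dashed line of equal change. Pairs that share at least 50% lie close to the line, with a rho of 0.91, and the others are more scattered, with a rho of 0.42.

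Of 54 members of such pairs whose log2 change was at least 1 in size, 48 had the sign of their partner. In 3 pairs, picked after their values were seen, member and partner went opposite ways by at least 1. The RNA lncRNA:CR44833 on X shares 5.61% of its exonic bases with ovo, a zinc finger transcription factor gene, and had 26.8 and 10.04 FPKM in the reprogrammed libraries against 2.52 and 0.60 FPKM in the controls. There ovo had 3.71 and 5.12 FPKM against 16.0 and 13.2 FPKM, a change of -1.53 (limma adjusted p = 0.0444). The gene asRNA:CR43723 had 10.7 and 7.25 FPKM against 3.22 and 1.67 FPKM, and its partner Coop had 5.0 and 4.26 FPKM against 9.31 and 18.6 FPKM. The other pair was asRNA:CR46093 with BRWD3.

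At the other end stood antisense genes that changed with their partner. The gene asRNA:CR43730 had 33.5 and 24.99 FPKM in the reprogrammed libraries against 2.22 and 6.46 FPKM in the controls, and its partner JhI-26, a juvenile hormone-inducible gene, had 55.9 and 47.9 FPKM against 2.36 and 10.5 FPKM. The gene asRNA:CR43477 had 13.2 and 6.23 FPKM against 1.14 and 0.20 FPKM, and its partner CG12256 had 11.9 and 7.30 FPKM against 0.86 FPKM in control replicate 1, and was not listed in control replicate 2. Member and partner shared 76.5% and 92.0% of the member's exonic bases in these pairs.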

How the data were processed

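Oligo(dT)-selected RNA was fragmented and copied from random primers, per the labels' protocols, with no step named that marks strand. Each sample's deposited table holds FPKM values by gene, per the file headers, made by the authors. Per the submitters' processing notes, Bowtie2 and HISAT were used. The sources used here give no versions for them and name neither the quantifier nor the genome build, and coordinates are therefore left out. An unlisted gene was set to 0. Gene numbers were named from a RefSeq table of Release 6 plus ISO1 MT (13959 by number, 3 by transcript, 35 unnamed). Lengths, strands and overlaps came from an Ensembl BDGP6 annotation, which held all 269 members. Overlaps with microRNAs, snoRNAs and other products of the same transcript were ignored.

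The test was limma (lmFit, eBayes with trend) on log2(FPKM + 1), with a term for group alone, over the 9851 genes that 2 or more of the 4 libraries held at 1 FPKM or above. It was two-sided, with Benjamini-Hochberg adjustment over those genes. Fold changes on this scale understate the change of low genes. Degrees of freedom were 2 residual and 3.72 prior, and the fit was tested on simulated data. With 2 against 2 an exact permutation test cannot go below p = 0.333. Adjusted p is given only for members past 5 FPKM in all 4 libraries and for other genes. Between 95.6% and 96.1% of low values of 600 to 2500 base genes were whole reads within 0.15, but no count test was run, as FPKM does not give counts for all genes.

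Members named were the 12 of highest mean, all that passed, the 10 largest changes in each direction among genes past the threshold in 1 group, those with a given name and up to 6 with an overlapping coding gene. The small RNA hosts and the pairs of opposite sign were named after their values were seen. Members, lists and rules were chosen with earlier results of these data known. Alternatives were other scalings, filters, pseudocounts and level thresholds, a length correction (loess, span 0.5), the replicate block and leaving out each library, where the lone library of a group is assumed to vary like the others. The software was R 4.3.3 with limma 3.58.1, and Python 3.11.15 with numpy 2.4.6, pandas 2.3.3 and matplotlib 3.10.9.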

Additional observations from a re-analysis of the deposited data

How the results depend on the processing

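Of the 188 genes past the threshold in all 4 libraries, 9 were called higher and 12 lower, and none of these 21 changed sign under any setting tried. Their groups did not overlap, so leaving out 1 library could not reverse a sign. The filters and the replicate block leave the log2 change as it is, so only scaling, length correction and pseudocount could have reversed one. Scaling to a common median gave 17 higher and 3 lower, and a common sum 8 and 20. Over all tested genes the median was then 0.06 and -0.49, against -0.25 as deposited. Quantile normalization gave 8 higher and 7 lower and removal of the length trend 8 and 6, where the calls of lncRNA:cherub, lncRNA:CRG, lncRNA:CR33938, lncRNA:noe, asRNA:CR43425, asRNA:CR43481 and asRNA:CR43868 were lost. Without the filter on low genes, limma called 0 higher and 0 lower, with 26 and 23 at an unadjusted p under 0.05, over 13997 genes fitted. A filter of 5 FPKM gave 10 and 14, and a pseudocount of 0.1 gave 9 and 10. The level threshold at 3 FPKM gave 12 and 14 of 237 genes, and at 10 FPKM 6 and 9 of 116. Leaving out genes whose span overlaps another gene left 25 genes, with 0 higher and 6 lower (1 and 10 at an unadjusted p under 0.05, limma). The median change of these 25 was -0.64. Of all tested genes at 5 FPKM or more in all 4 libraries, 5.58% were called lower. Leaving out 1 library gave 3 to 36 higher and 1 to 34 lower. The replicate block gave 18 and 23, but the deviations of same-numbered libraries had a correlation of -0.03, so the numbers were not taken to pair the samples. The log2 change of asRNA:CR11538 was 1.13 without reprogrammed replicate 1 and -5.36 without reprogrammed replicate 2. Of the single-gene values with a test, 283 kept their side of the threshold, 76 lost the call and 1 gained it (lncRNA:CR42491 without control replicate 2). The 283 include genes not called in the main fit that stayed uncalled, and all 76 lost calls were of the 21 called genes. Without a test, 263 moved by less than the spread between replicates, 24 by more and 1 changed sign. The filters and the replicate block cannot move a log2 change, and leaving out 1 library moves it by less than that pair's own difference. Part of the 263 was thus fixed in advance. Other than as said for filters and libraries left out, which change the genes or samples fitted, the cause was not tested. With 2 libraries per group, changes of low genes are the least certain.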
